A study of Mus musculus with 14 samples.

Results

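Proteasome subunit genes were taken as the protein-coding genes of GENCODE M21 (genome build GRCm38/mm10) with a symbol made of *Psma*, *Psmb*, *Psmc*, *Psmd* or *Psme* and a number, without *Psmc3ip*. This rule uses no measured value. It gave 44 genes among the 21755 protein-coding genes of the autosomes and chromosome X. DMC1 ChIP-SSDS, in which the single-strand DNA bound by DMC1 is sequenced, was performed on whole testes of adult mice with 2 genotypes, to map the sites of meiotic DNA double-strand breaks (DSBs) with and without the chromatin remodeler HELLS. *Hells* CTRL mice carried a floxed and a deleted *Hells* allele (Hellsfl/{delta}) and no Cre, so the controls also had a deleted allele, and *Hells* cKO mice carried the same alleles with Stra8-iCre (Hellsfl/{delta};Stra8-iCre). The *Stra8* promoter drives Cre in male germ cells that enter meiosis, and the study notes that deletion may be incomplete, so some spermatocytes of *Hells* cKO testes may have kept HELLS. Both genotypes carried the Dom2 allele of *Prdm9*. There were 2 replicates per genotype, from 5 week-old mice with 2 testes per replicate in *Hells* CTRL and from 9 week-old mice with 3 testes per replicate in *Hells* cKO, so age and genotype cannot be told apart. The other 10 samples of the series, 5-hydroxymethylcytosine immunoprecipitations and their inputs, were not analysed here.

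The proteasome degrades proteins tagged with ubiquitin. Its barrel-shaped 20S core has outer rings of alpha subunits (*Psma* genes), which gate the entry, and inner rings of beta subunits (*Psmb* genes), which hold the proteases. The 19S cap has ATPases that unfold the substrate (*Psmc* genes) and non-ATPase subunits (most *Psmd* genes), some of which bind or remove ubiquitin. The *Psme* genes encode other activators that open the core. Most of these genes are housekeeping genes. *Psmb8*, *Psmb9* and *Psmb10* are the interferon-induced proteases of the immunoproteasome and replace *Psmb5*, *Psmb6* and *Psmb7*, *Psmb11* replaces *Psmb5* in the thymic cortex, and *Psma8* encodes the alpha subunit that takes the place of *Psma7* in male germ cells. In mammalian meiosis, the methyltransferase PRDM9 directs DSBs to its binding sites, and in mice that lack PRDM9 DSBs form at other sites rich in H3K4me3, many of them promoters. DMC1 coats the single-strand DNA at DSB ends, and a peak of this DNA marks a DSB hotspot.

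The authors merged the replicates of each genotype into 1 final list of peaks, so the values below have no replicate error and no test between genotypes was possible. The *Hells* CTRL list held 11133 peaks with a median strength of 63 (range 11 to 5547), and the *Hells* cKO list 17117 peaks with a median of 31 (range 5 to 3299). The strength is the authors' own score, given in whole numbers, and the number of reads behind it is unknown. The authors could not put both genotypes on a common scale, so each strength is given with its percentile within its own list, and strengths of the 2 lists are not compared. A start-site peak is a peak with its center within 1 kb of the start of any transcript of the gene. The lists hold no expression values, so neither the loss of *Hells* nor markers of testis cells could be checked in them.

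Promoter sequences of RefSeq (GRCm38.p6, 250 bases before to 50 bases after the start) were matched by symbol for 37 of the 44 genes. No sequence was found there for *Psma8*, *Psmb1*, *Psmb2*, *Psmb7*, *Psmc3*, *Psmd3* and *Psmd7*. The promoters shown are those of *Psmc2*, which had the strongest *Hells* cKO start-site peak among the matched genes, of *Psma7*, which had no peak, and of the constitutive proteases *Psmb5* and *Psmb6* with the immune proteases *Psmb8*, *Psmb9* and *Psmb10*. Capitals mark the motifs CCAAT (bound by NF-Y), GGGCGG (Sp factors), CCGGAAG (ETS factors), TGACNNNGC (the core of the antioxidant response element, to which the proteasome regulator encoded by *Nfe2l1* binds) and GCATGCGC (nuclear respiratory factor), each searched on both strands. Each sequence is written 5′ to 3′ on the strand of its gene.
Psmc2, chr5:21785025-21785324, plus strand: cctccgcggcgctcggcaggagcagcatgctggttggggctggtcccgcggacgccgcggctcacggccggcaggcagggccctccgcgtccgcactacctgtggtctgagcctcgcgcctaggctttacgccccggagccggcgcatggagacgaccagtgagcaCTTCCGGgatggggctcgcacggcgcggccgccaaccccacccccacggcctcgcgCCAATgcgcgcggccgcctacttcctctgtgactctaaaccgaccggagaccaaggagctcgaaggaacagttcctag
Psma7, chr2:180042415-180042714, minus strand: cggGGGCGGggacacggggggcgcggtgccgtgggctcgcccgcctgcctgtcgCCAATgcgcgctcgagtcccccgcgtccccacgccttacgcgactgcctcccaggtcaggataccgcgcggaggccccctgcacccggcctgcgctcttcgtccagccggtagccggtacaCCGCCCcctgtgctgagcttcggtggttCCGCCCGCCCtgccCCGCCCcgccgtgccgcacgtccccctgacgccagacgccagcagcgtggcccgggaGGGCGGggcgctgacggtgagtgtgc
Psmb5, chr14:54617946-54618245, minus strand: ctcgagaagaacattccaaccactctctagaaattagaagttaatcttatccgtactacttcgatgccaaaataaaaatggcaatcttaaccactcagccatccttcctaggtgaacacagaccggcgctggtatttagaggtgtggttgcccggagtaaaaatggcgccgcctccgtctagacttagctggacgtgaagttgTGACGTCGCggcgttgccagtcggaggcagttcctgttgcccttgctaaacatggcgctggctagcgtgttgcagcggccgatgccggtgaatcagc
Psmb8, chr17:34197945-34198244, plus strand: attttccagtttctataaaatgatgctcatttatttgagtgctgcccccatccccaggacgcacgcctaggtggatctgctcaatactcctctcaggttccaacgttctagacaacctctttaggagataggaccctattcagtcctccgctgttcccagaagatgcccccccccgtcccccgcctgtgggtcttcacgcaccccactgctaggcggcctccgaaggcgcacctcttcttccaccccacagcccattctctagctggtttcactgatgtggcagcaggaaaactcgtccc
Psmb6, chr11:70525107-70525406, plus strand: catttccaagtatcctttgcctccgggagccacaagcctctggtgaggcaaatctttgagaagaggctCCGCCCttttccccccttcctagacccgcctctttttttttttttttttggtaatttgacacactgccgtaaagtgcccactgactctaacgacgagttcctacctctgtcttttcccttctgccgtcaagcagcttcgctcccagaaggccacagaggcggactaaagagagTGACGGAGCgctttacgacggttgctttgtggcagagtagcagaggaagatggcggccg
Psmb9, chr17:34187281-34187580, minus strand: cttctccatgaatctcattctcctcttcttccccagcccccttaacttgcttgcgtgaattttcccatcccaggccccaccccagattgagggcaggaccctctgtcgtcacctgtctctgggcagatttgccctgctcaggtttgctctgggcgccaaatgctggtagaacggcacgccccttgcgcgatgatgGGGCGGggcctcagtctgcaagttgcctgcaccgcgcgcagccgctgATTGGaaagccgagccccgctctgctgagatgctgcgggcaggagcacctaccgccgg
Psmb10, chr8:105938343-105938642, minus strand: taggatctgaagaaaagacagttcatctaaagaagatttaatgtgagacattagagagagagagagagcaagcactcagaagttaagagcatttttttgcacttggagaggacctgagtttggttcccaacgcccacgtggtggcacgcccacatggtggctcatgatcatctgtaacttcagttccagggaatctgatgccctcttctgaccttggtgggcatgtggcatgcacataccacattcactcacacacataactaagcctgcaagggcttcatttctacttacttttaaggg

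The *Psma7* sequence held 41 CpG dinucleotides and the *Psmc2* sequence 37. Among the proteases, the *Psmb5* sequence held 20 CpG, *Psmb8* 11, *Psmb6* 15, *Psmb9* 17 and *Psmb10* 3. The RefSeq start lies 405 bp from the principal GENCODE start of *Psmb8* and 434 bp from that of *Psmb9*, against at most 52 bp for the other 5 genes. For *Psmb10* the sequence belongs to an upstream start, whereas the *Hells* cKO peak of this gene is centered 1030 bp downstream of the principal start. The TGACNNNGC motif was found in the *Psmb5* and *Psmb6* sequences and not in those of *Psmb8*, *Psmb9* and *Psmb10*.

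In the *Hells* cKO list, 35 of the 44 proteasome genes (79.5%) had a start-site peak, against 45.6% of all protein-coding genes. At the share of all genes, 20.1 of 44 genes would have one. The count differed between kinds of subunits. A start-site peak was found at 32 of the 36 constitutive genes (88.9%). It was found at 3 of the 8 immune, thymus and testis genes with the paralog *Psme2b* (37.5%). This second share rests on 8 genes and lies near the 45.6% of all protein-coding genes. Only the constitutive share was thus well above the background. The median number of annotated starts was 5 in the constitutive genes, 6.5 in the other 8 genes and 3 over all protein-coding genes. A gene with more starts has more windows for a start-site peak, and the part of this in the shares was not tested. In the *Hells* CTRL list, none of the 44 genes had a start-site peak. The share among all protein-coding genes was 2.70%, at which 1.19 of 44 genes would have one, so the count of 0 lies close to this background. None of the member peaks was common to both lists, when common means that windows reaching 200 bp to either side of both centers overlap. Of the strongest start-site peaks of all protein-coding genes in the *Hells* cKO list, 1.88% were common, so a count of 0 among 35 peaks is near this background.

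**Figure D1:**
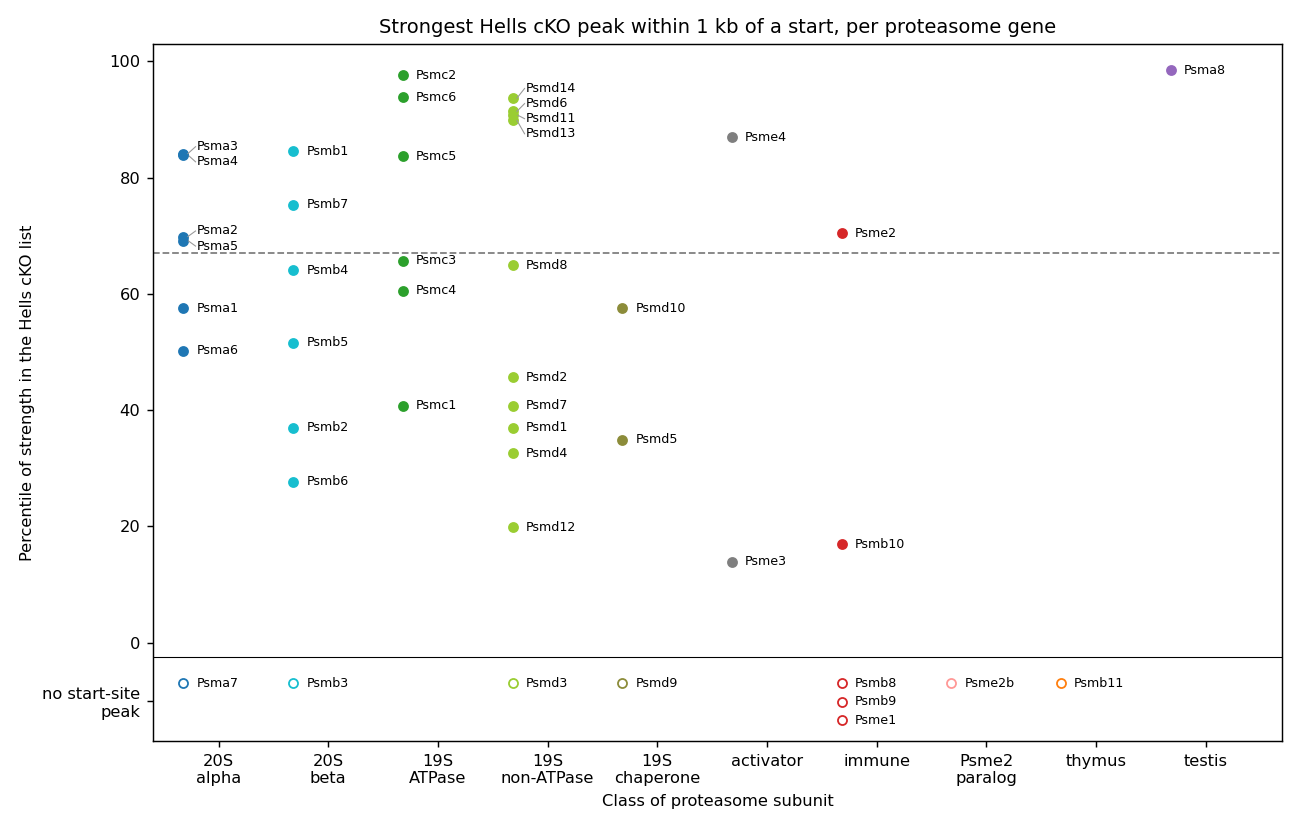
Percentile within the *Hells* cKO list of the strongest start-site peak of each proteasome gene (y axis), by class of subunit (x axis), with open circles for the 9 genes without a start-site peak and a dashed line at the median over all protein-coding genes with such a peak (67.1). The peaks spread from percentile 13.9 (*Psme3*) to percentile 98.5 (*Psma8*), and 5 of the 9 open circles are immune or thymus genes or *Psme2b*.

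The genes of the 20S core were alike in count. A start-site peak was present at 6 of 7 constitutive alpha genes and at 6 of 7 constitutive beta genes. Among the alpha genes, the strengths ranged from 31 at *Psma6* (percentile 50.2) to 90 at *Psma3* (percentile 84.1), so all 6 lay above the 50th percentile. Among the beta genes, the range was wider, from 19 at *Psmb6* (percentile 27.7) to 92 at *Psmb1* (percentile 84.6). *Psma7* and *Psmb3* had no start-site peak.

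In the 19S cap, all 6 ATPase genes had a start-site peak, as did 10 of the 11 non-ATPase genes. The ATPase genes spread from a strength of 25 at *Psmc1* (percentile 40.7) to 219 at *Psmc2*. The non-ATPase genes spread from 16 at *Psmd12* (percentile 19.8) to 151 at *Psmd14*, and *Psmd3* had none. Of the 3 genes of the assembly chaperones, *Psmd5* had a peak of strength 22 (percentile 34.9), *Psmd10*, the only proteasome gene on chromosome X, had one of 37 (percentile 57.5), and *Psmd9* had none. Both constitutive activator genes had a peak. It was strong at *Psme4* (102, percentile 86.9), which encodes the nuclear activator PA200, needed for normal spermatogenesis, and weak at *Psme3* (14, percentile 13.9), which encodes the nuclear activator PA28 gamma.

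The 6 strongest start-site peaks were above the 90th percentile. They were at *Psma8*, *Psmc2*, *Psmc6*, *Psmd14*, *Psmd6* and *Psmd11*, which is 13.6% of the 44 genes, against 8.11% of all protein-coding genes with a start-site peak this strong. The strongest, at *Psma8*, the testis alpha subunit, had a strength of 253 (percentile 98.5), and only 256 of the 17117 peaks of the list were stronger. It was centered 25 bp downstream of the nearest start. The peak at *Psmc2*, an ATPase gene, had a strength of 219 (percentile 97.6, chr5:21783813-21785938) and was centered 408 bp upstream of the start, on the promoter it shares with *Dnajc2*. *Psmc6*, another ATPase gene, had a peak of 153 (percentile 93.9, chr14:45329222-45331373) centered 436 bp downstream, in an intron. *Psmd14* encodes the deubiquitinase that removes ubiquitin chains from substrates. Its peak had a strength of 151 (percentile 93.7, chr2:61710928-61712699) and was centered 22 bp downstream. The peaks at *Psmd6* (131, percentile 91.4) and *Psmd11* (126, percentile 90.8), both encoding scaffold subunits of the lid of the cap, were centered 32 bp upstream and 485 bp downstream, respectively.

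The remaining 29 start-site peaks had strengths from 14 (percentile 13.9) to 119 (percentile 89.9). The median strength over the 35 genes was 45 (range 14 to 253), at percentile 64.9 (quartiles 40.7 and 84.4). The median over all 9925 protein-coding genes with a start-site peak was 48, at percentile 67.1. Ranked among start-site peaks alone, the proteasome genes had a median percentile of 49.8. Their peaks were therefore found at more genes than the background but were of ordinary strength for start-site peaks. Counting only peaks at or above the median strength of the list, 24 genes (54.5%) had one, against 31.3% of all protein-coding genes.

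**Figure D2:**
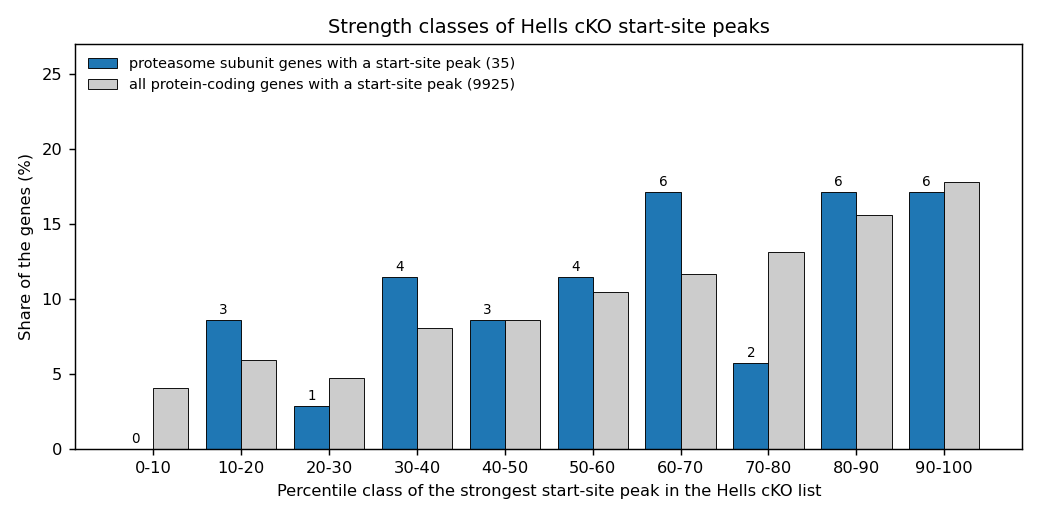
Share of genes (y axis, %) by percentile class of their strongest *Hells* cKO start-site peak (x axis) for the 35 proteasome genes (blue, with counts) and for all 9925 protein-coding genes (gray) with such a peak. The 2 distributions run alongside each other, with 6 proteasome genes (17.1%) and 17.8% of all genes in the top class.

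The distances of the peaks from the nearest start were close to those over all protein-coding genes. The side of the start and the location in exons or introns were counted for the proteasome genes alone. The 35 genes had 35 distinct peaks, and 25 of these were centered downstream of the nearest start and 10 upstream. The median distance was 165 bp, from 4 bp at *Psmd2* to 485 bp at *Psmd11*, and 28 of the 35 centers were within 300 bp. Over all 9925 protein-coding genes with a start-site peak, the median distance was 145 bp, and 77.8% were within 300 bp. Relative to the principal start of each gene, 29 centers were downstream and 6 upstream, with a median position of 187 bp downstream. The centers fell in introns at 14 genes, in noncoding exon sequence at 13, in coding exons at 4 and just outside the gene at 4. The median width of the peaks was 2040 bp, and all 35 intervals covered the nearest start. The peaks at *Psmb1* and *Psmb10* were the exceptions relative to the principal start. The *Psmb1* peak was centered at -1246 bp from it and 207 bp downstream of another start.

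**Figure D3:**
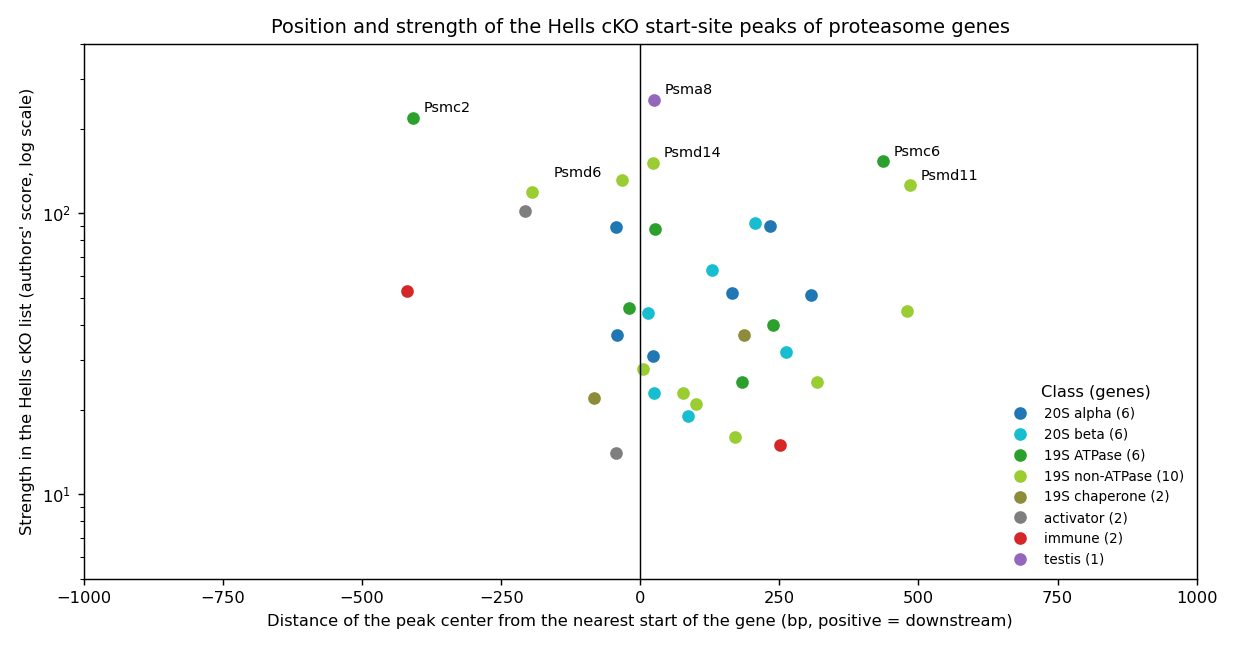
Distance of the center of each *Hells* cKO start-site peak from the nearest start of its gene (x axis, bp, positive downstream) and its strength (y axis, the authors' score, log scale), 1 point for each of 35 proteasome genes, colored by class. All points lie within 485 bp of a start, and the 6 named peaks are those of strength 126 or more.

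In 8 of the 35 cases the peak was also within 1 kb of the start of another protein-coding gene. The pairs were *Psmc2* with *Dnajc2*, *Psmd13* with *Sirt3*, *Psma4* with *AY074887*, *Psmc5* with *Ftsj3*, *Psma2* with *Mrpl32*, *Psme2* with *Rnf31*, *Psmb1* with *Tbp* and *Psmd10* with *Atg4a*. The median percentile was 83.8 for these 8 genes and 57.5 for the 27 genes with a peak of their own. Over all protein-coding genes, the same split gave 73.6 for 2199 genes and 64.9 for 7726 genes. The direction was thus the same in both, and the peaks of a shared promoter cannot be assigned to either gene.

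The immune and tissue-restricted subunits were compared with the constitutive subunits that they replace. *Psmb5*, the chymotrypsin-like protease, had a peak of strength 32 (percentile 51.6, chr14:54616856-54618637), whereas no start-site peak was found at *Psmb8*, its immune form. The nearest *Hells* cKO peak to a start of *Psmb8* was 65634 bp away. *Psmb6*, the caspase-like protease, had a weak peak of strength 19 (percentile 27.7, chr11:70524792-70526153), and *Psmb9*, its immune form, had none, with the nearest peak 77224 bp away. *Psmb7* and *Psmb10* made the only pair of proteases with a peak at both. *Psmb7*, the trypsin-like protease, had a strength of 63 (percentile 75.3, chr2:38642563-38645020), and *Psmb10* had one of the weakest, 15 (percentile 16.9, chr8:105936498-105938331). *Psmb11*, the thymus form of *Psmb5*, had no start-site peak. The peak nearest to it, 3687 bp away, is the start-site peak of *Psmb5* on the same chromosome.

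The testis subunit was the reverse case. *Psma8* had the strongest peak of all proteasome genes, whereas *Psma7*, the constitutive alpha subunit in its place, had no start-site peak, and its nearest *Hells* cKO peak was 28175 bp away. The genes for the interferon-induced activator PA28 also differed between themselves. *Psme2*, its beta subunit, had a peak of 53 (percentile 70.5, chr14:55590273-55592792) that was 419 bp upstream of its start and also near the start of *Rnf31*. *Psme1*, its alpha subunit, had no start-site peak, with the nearest peak 1678 bp away. *Psme2b*, a paralog of *Psme2* of only 837 bp, had none, with the nearest peak 74681 bp away. Only uniquely mapped reads were kept by the authors, so a peak in sequence shared by *Psme2b* and *Psme2* could have been missed.

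The other genes without a start-site peak were constitutive. The nearest *Hells* cKO peak was 4618 bp from *Psmb3*, a structural beta subunit, 83729 bp from *Psmd3*, a lid subunit, and 3030 bp from *Psmd9*, an assembly chaperone. Of the 9 genes without a peak, *Psmd9* was the only one with a *Hells* CTRL peak in its body. The distances fell into separate ranges, with 4 genes at 1678 to 4618 bp and 5 genes at more than 25 kb.

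CpG content and motifs at the starts were examined next, which the choice of genes did not use. The CpG count (CpG dinucleotides up to 250 bp from the principal start) had a median of 35.5 over the proteasome genes (range 5 to 66) and of 26 over all protein-coding genes. The constitutive genes had a median of 36 (range 19 to 66), and the immune, thymus and testis genes with *Psme2b* had a median of 20 (range 5 to 32). The share of genes with a *Hells* cKO start-site peak rose with CpG over all protein-coding genes, from 7.27% with 0 to 9 CpG to 32.3% with 10 to 19, 63.9% with 20 to 39 and 74.2% with 40 or more. In the proteasome genes, the counts were 1 of 2, 2 of 3, 25 of 31 (80.6%) and 7 of 8 genes (87.5%). The lower classes hold few of these genes, and the 1 gene with a peak in the lowest class is *Psmb10*. With CpG read at the richest start of each gene, an alternative chosen after seeing the data, the lowest class held 0 of 1 genes with a peak (1.33% of all genes), and the highest 19 of 21 (90.5%, against 73.5%). At the shares of the CpG classes of the principal start, 26.9 of the 44 genes would have a peak, compared with 35 observed. CpG and the kind of subunit varied together, and the part of CpG in the difference between kinds was not tested.

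**Figure D4:**
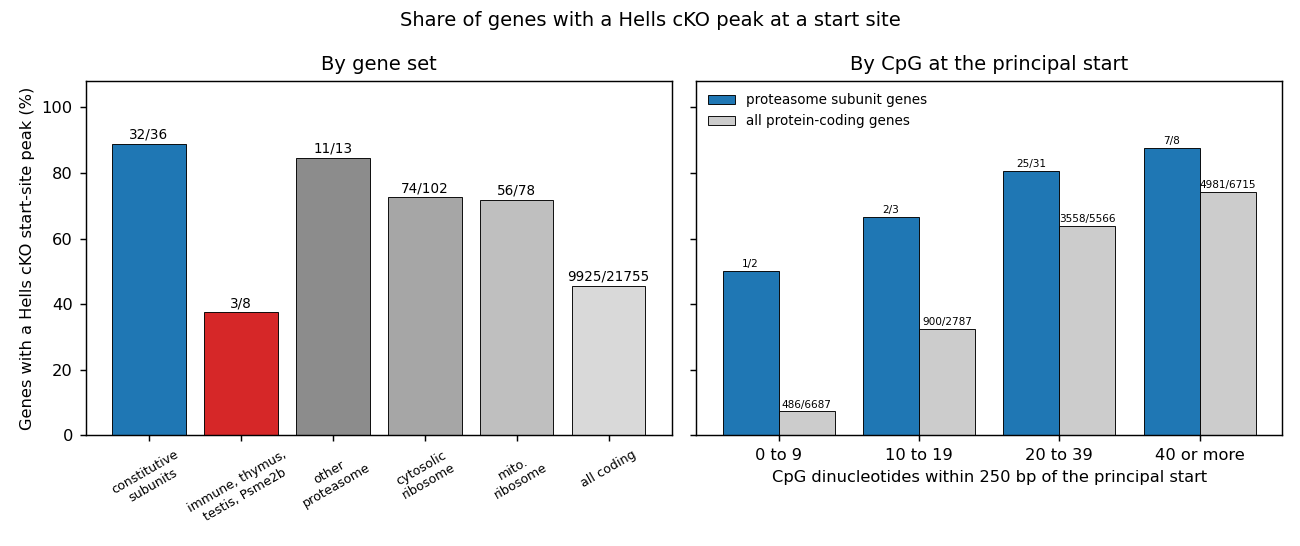
Share of genes with a *Hells* cKO start-site peak (y axis, %), on the left by gene set and on the right by the CpG count around the principal start, for proteasome genes (blue) and all protein-coding genes (gray), with the counts above the bars. The constitutive subunits reach 88.9% and the immune, thymus and testis subunits with *Psme2b* 37.5%, against 45.6% of all protein-coding genes. The lower CpG classes hold only 2 and 3 proteasome genes.

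Single genes did not follow the CpG count closely. *Psma7* had the highest count of all proteasome genes, 66 CpG, and no peak. *Psma8* had 23 CpG and the strongest peak, while *Psmb8*, with the same count, had none. *Psmb9* had 32 CpG and no peak, more than *Psmb6* (25) and *Psmb7* (26), which both had a peak. At the start with the most CpG, however, *Psmb7* had 43, *Psmb9* 32 and *Psmb6* 26. The center of the *Psmb7* peak had 45. Across the 35 genes with a peak, Spearman's rho between CpG and percentile was 0.09, given as a description, and over the 9925 protein-coding genes it was 0.23. *Psmb10* was the gene with the fewest CpG, 5 at its principal start, but the center of its peak had 27, and the start of this gene with the most CpG had 25.

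Motifs were counted in the same windows of 250 bases before to 50 after the principal GENCODE start of every protein-coding gene. CCGGAAG was found at 15 proteasome genes (34.1%), against 11.3% of all protein-coding genes. It was found at 24.5% of cytosolic and 37.2% of mitochondrial ribosomal protein genes, so a high share was not particular to proteasome genes. CCGGAAG contains a CpG. With 20 to 39 CpG it was found at 32.3% of the proteasome genes and 17.2% of all genes. With 40 or more it was found at 4 of 8 proteasome genes and 18.7% of all genes. The matches were mostly at 19S genes, with 4 of 6 ATPase genes and 6 of 11 non-ATPase genes, compared with 1 of 7 alpha and 0 of 7 beta genes. Both activator genes also had a match. GGGCGG was found at 65.9% of the proteasome genes and at 45.8% of all genes, and overlapping matches were counted. It also contains a CpG. With 20 to 39 CpG it was found at 71.0% of the proteasome genes and 58.7% of all genes. With 40 or more it was found at 62.5% and 82.4%, so the proteasome genes were not above the other genes throughout. CCAAT was as frequent in both (38.6% and 38.4%). TGACNNNGC was found at 7 genes (15.9%, against 12.6%), which is near the share of all genes. The genes were *Psmb2*, *Psmb5*, *Psmb6*, *Psmc6*, *Psmd7*, *Psmd9* and *Psmd12*, all constitutive, and at the share of all genes 1.01 of the 8 other genes would have a match. GCATGCGC was found at 3 genes (6.82%, against 3.46%). A match describes only these letters in this window.

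In the *Hells* CTRL list, 6 of the 44 genes (13.6%) had a peak inside the gene body, against 18.1% of all protein-coding genes, so the proteasome genes were not above the background. There were 7 such peaks, with strengths of 15 to 354. All 7 centers were in introns, and they had 2 to 6 CpG within 250 bp, whereas the *Hells* cKO start-site peaks had 10 to 56. The former lay more than 1 kb from every start of their gene and the latter within 1 kb of one. These CpG counts therefore do not compare the lists apart from position. All 6 genes were 30 kb or longer, and 10 of the proteasome genes are that long. Of all protein-coding genes of 30 kb or more, 41.5% had a *Hells* CTRL peak in the body, compared with 5.42% of shorter genes.

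The strongest of these peaks was in *Psmd1*, a large scaffold subunit of the cap. It had a strength of 354 (percentile 90.8, chr1:86087336-86089343) and was 23570 bp from the *Hells* cKO peak at the start of this gene, which had a strength of 23. *Psma6* had 2 peaks, of 239 (percentile 84.0, chr12:55407535-55409290) and 74 (percentile 54.9, chr12:55386821-55388238), on either side of its *Hells* cKO peak of 31. The weaker peak was centered at -11246 bp from the principal start, so it lay in the body only through an annotated start farther upstream. The stronger peak was 1029 bp from the nearest annotated start of *Psma6* and thus just outside the 1 kb limit. *Psma2* had a peak of 176 (percentile 77.8, chr13:14613463-14615650), centered 1316 bp from the start. Its interval overlapped that of the *Hells* cKO peak of this gene (52, percentile 69.9, chr13:14612415-14614396), but the centers were 1151 bp apart, so they do not count as common. The *Psma2* locus therefore had a peak in each list within a short distance, the one in *Hells* cKO at the CpG-rich start (26 CpG at the center) and the one in *Hells* CTRL in the first part of the gene (2 CpG).

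The other 3 peaks were weaker. The peak in *Psmd14* had a strength of 55 (percentile 45.1, chr2:61722660-61724533) and was 7773 bp from the nearest start. The peak in *Psmd9* had a strength of 24 (percentile 13.1, chr5:123193606-123195331). It was centered at -33722 bp from the principal start, so it lay in the body only through an annotated start farther upstream. The peak in *Psme4* had a strength of 15 (percentile 0.723, chr11:30870553-30871966), which is among the weakest of the list. In *Psmd1*, *Psma6*, *Psma2*, *Psmd14* and *Psme4*, a *Hells* cKO peak lay at a start and a *Hells* CTRL peak elsewhere in the same gene.

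In the *Hells* cKO list, a peak in the body away from the starts was found in 1 of the 44 genes (2.27%), against 10.3% of all protein-coding genes. This share depends on length. Over all protein-coding genes it was 22.5% at 30 kb or more and 3.74% below. In the proteasome genes the counts were 1 of 10 and 0 of 34, too few to separate from length. The single peak was in *Psma2* (49, percentile 67.8, chr13:14629123-14631244), and it lay at a start of another coding gene, *AW209491*, within the annotated span of *Psma2*. The peaks of the proteasome genes in *Hells* cKO mice were therefore all at a start site, either their own or that of a gene inside them.

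The distance from the starts to the nearest peak of each list was compared in the same genes. A *Hells* cKO peak was nearer than a *Hells* CTRL peak at 43 of the 44 genes, and the single exception was *Psme2b* (74681 and 71172 bp). The share over all protein-coding genes was 76.4%, and the *Hells* cKO list is the longer of the lists. The median distance to the nearest *Hells* CTRL peak was 55.4 kb over the proteasome genes, close to 66.1 kb over all protein-coding genes. It was 47.7 kb for the constitutive genes and 151 kb for the immune, thymus and testis genes with *Psme2b*. The genes farthest from a *Hells* CTRL peak were *Psme2* (746920 bp) and *Psme1* (736439 bp), which are neighbors. *Psmb9* (228184 bp) and *Psmb8* (216594 bp) are also neighbors. Within each pair the nearest peak is the same. The distances of the 8 genes are therefore not separate values, and their median of 151 kb leans on these neighbors. A *Hells* CTRL peak lay within 10 kb of a start at 5 genes, namely *Psma6*, *Psma2*, *Psme4*, *Psmd14* and *Psmb6*. The share of all protein-coding genes within 10 kb was not computed.

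**Figure D5:**
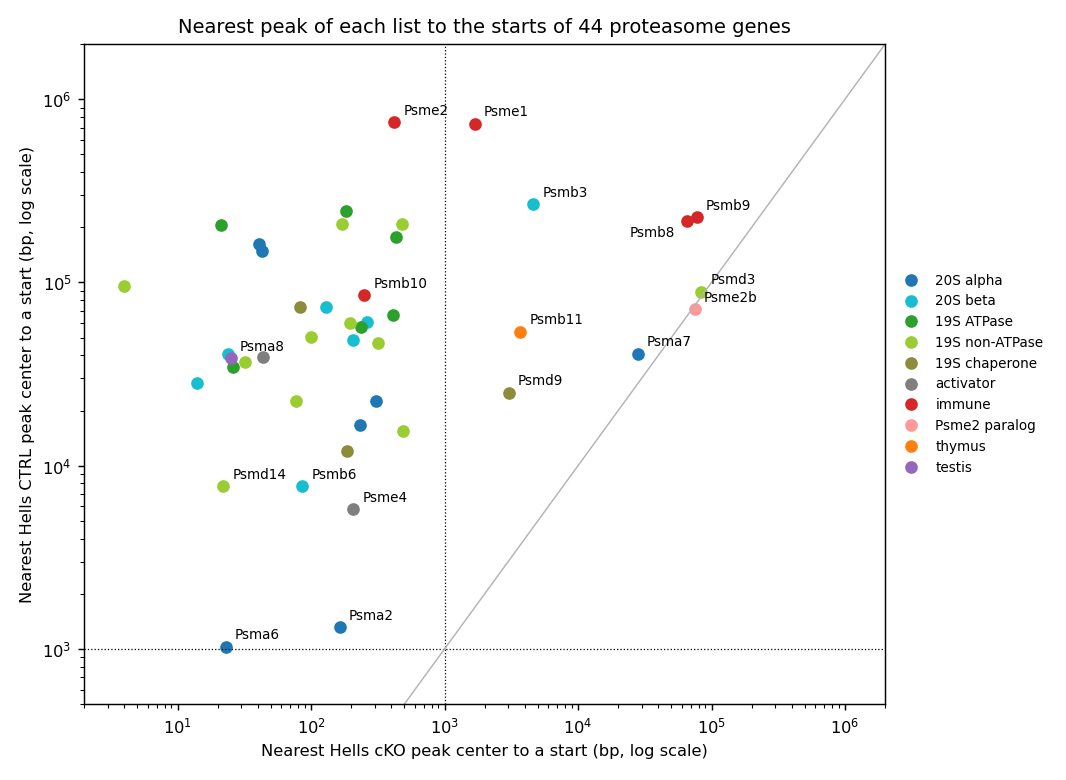
Distance from the starts of each of the 44 proteasome genes to the nearest *Hells* cKO peak center (x axis, bp, log scale) and to the nearest *Hells* CTRL peak center (y axis, bp, log scale), colored by class, with dotted lines at 1 kb and a gray line of equal distance. In all, 35 genes lie left of the vertical dotted line and none below the horizontal one, and *Psme2b* is the only gene on the right of the gray line.

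*Psmb9* also names a control region of the study, Psmb9.8, a hotspot of another *Prdm9* allele (Cst) that the mice used here do not carry. The amplicon was placed on chromosome 17 of GRCm38.p6 from the sequences of its primers, written 5′ to 3′.
Psmb9.8-F: ttcattgtccccttcctgta
Psmb9.8-R: tactgggaaatggctggtaa
Each primer matched this chromosome once, giving chr17:34179361-34179573 (213 bp), outside *Psmb9* with the middle 2520 bp beyond its 3′ end. The nearest *Hells* CTRL peak was 236481 bp away (strength 30), and the nearest *Hells* cKO peak 85521 bp away (strength 51). No peak of either list was thus found at this hotspot or at the adjacent immune subunits. Between the flanking *Hells* cKO peaks, chr17:34026771-34028238 at the start of *H2-Ke6* and chr17:34263931-34266046, no peak was present over 237 kb, in which 14 coding genes have a start. Besides *Psmb8* and *Psmb9* these include *Tap1* and *Tap2*, the peptide transporters of antigen presentation, and MHC class II genes such as *H2-Ab1*. Of the gaps between neighboring *Hells* cKO peaks on a chromosome, 15.4% were at least this long. In the *Hells* CTRL list the gap around both genes was 693 kb, and 5.57% of gaps were at least this long.

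Of 13 other genes of the pathway (assembly factors, regulators, associated enzymes and the transcription factor *Nfe2l1*), 11 (84.6%) had a *Hells* cKO start-site peak and none had a *Hells* CTRL start-site peak. The strongest were at *Psmg2*, an assembly chaperone of the alpha ring (248, percentile 98.4), and at *Usp14*, a deubiquitinase of the cap (205, percentile 97.1). *Ecpas*, a proteasome adaptor, had a strength of 200 (percentile 96.9) and *Sem1*, a small lid subunit, one of 143 (percentile 92.8). *Nfe2l1*, which activates proteasome genes when the proteasome is inhibited, had a peak of 57 (percentile 72.7), and *Ddi2*, the protease that activates it, one of 8 (percentile 0.511). *Pomp*, which matures the core, had a strength of 13 (percentile 10.9). The assembly chaperones *Psmg1* and *Psmg3* had no start-site peak.

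The genes of another large housekeeping complex were compared in the same way. The cytosolic set was taken by the beginning of the symbol (*Rpl* or *Rps* and a number, with *Rpsa* and the *Rplp* genes). It therefore also holds genes with longer symbols that do not encode ribosomal proteins, such as ribosomal protein kinases. A *Hells* cKO start-site peak was found at 74 of the 102 genes of this set (72.5%). It was found at 56 of 78 mitochondrial ribosomal protein genes (71.8%), at 35 of all 44 proteasome genes (79.5%) and at 88.9% of the constitutive ones. The ribosomal sets were not split into constitutive and other members. The median percentile of the strongest peak was 72.6 and 61.7 in these sets and 64.9 in the proteasome genes. These are counts in 1 list, and no test of the difference was made.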

How the data were processed

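DMC1 ChIP-SSDS libraries of *Hells* CTRL and *Hells* cKO testes (2 replicates each) were processed by the authors. Reads were mapped to GRCm38/mm10, non-duplicated uniquely mapped reads were kept, peaks were called with MACS2, and reproducible peaks of the pooled reads formed 1 list per genotype. The submitters' processing notes also name CASAVA, Trimmomatic, Bowtie2 and BWA. Each deposited peak carries a strength, a score that the authors derived from a background-corrected fragment count. All strengths are whole numbers, and the reads behind them are unknown, so no interval was computed.

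Peak centers were midpoints of the deposited intervals. Starts were those of all GENCODE M21 transcripts, and the principal start was that of the best APPRIS transcript. Percentiles are mid-ranks within a list. CpG and motifs were read from GRCm38.p6. Described in full were the 6 strongest members, members with a *Hells* CTRL peak or without a *Hells* cKO start-site peak, immune, thymus and testis members and the constitutive subunits they replace. The genes and lists were chosen with earlier results of these data known. The split at 30 kb, the counts by shared start, the gaps around *Psmb9* and the background of common peaks, of distances and of the nearer list were added after values were seen. The alternatives were other reaches, interval overlap, other sets of starts, exact symbols, stronger peaks and other reference lists for percentiles. The code was tested on simulated peaks. Python 3.11.15, numpy 2.4.6, pandas 2.3.3 and matplotlib 3.10.9 were used.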

Additional observations from a re-analysis of the deposited data

How the results depend on the processing

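The number of proteasome genes with a *Hells* cKO start-site peak was 35 as reported and lay between 32 (outermost start of each gene only) and 36 (reach of 2 kb, or overlap of the peak interval with the window) under the alternatives on reach, starts and symbols. Restricted to peaks at or above the median strength, it was 24 (54.5%, against 31.3% of all protein-coding genes). At the other settings of reach, starts and symbols, the shares of all protein-coding genes were not computed for either list. The gene added at a reach of 2 kb was the immune gene *Psme1* (nearest peak at 1678 bp). The contrast of *Psme1* with *Psme2* thus held at 1 kb but not at 2 kb. The count for *Hells* CTRL start-site peaks depended on the reach: it was 0 with 500 bp or 1 kb, 2 with 2 kb and 2 where any overlap of the peak interval with the 1 kb window was counted, and *Psma2* and *Psma6* have their nearest *Hells* CTRL peak at 1316 and 1029 bp. The number of genes with a *Hells* CTRL peak in the body was 6, also by interval overlap, and 3 with the stronger peaks alone. The count of 1 gene with a *Hells* cKO peak in the body away from its starts was the same under its 3 alternatives. The median percentile of 64.9 was 65.9 among autosomal peaks and 64.5 by interval overlap, but 49.8 among start-site peaks. With CpG read at the richest start of each gene, an alternative chosen after seeing the data, the shares of the classes would give 27.8 genes with a *Hells* cKO start-site peak in place of 26.9. No paired analysis was possible because the peak lists used here pool the replicates of each genotype. For the same reason no replicate could be left out, and the results compare 2 lists, each from mice of a single age group.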
